A study of Homo sapiens with 6 samples.

Results

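Immune checkpoint ligands are surface molecules through which a tumour cell engages receptors of T cells, natural killer (NK) cells and macrophages. RNA levels of 10 such genes, chosen by name from the 47432 genes in each table, were followed in the human melanoma cell line LOX-IMVI. The genes were the PD-1 ligands CD274 and PDCD1LG2, the B7 family member CD276, the galectin gene LGALS9, the ecto-enzyme gene NT5E, the "don't eat me" gene CD47, the nectin family genes PVR and NECTIN2, and the NKG2D ligands MICA and ULBP2. RNA-seq was performed on 3 control libraries (shCtrl) and 3 NFKBIZ knockdown libraries (shNFKBIZ), in which the nuclear NF-κB co-regulator IκBζ was targeted. Both groups were transduced with a lentiviral pLKO.1 construct, the knockdown with a single hairpin sequence, and selected with puromycin. They were otherwise the same line in standard medium with 10% fetal calf serum, with no stimulus or drug named in the labels. Findings therefore rest on 1 hairpin in 1 line without immune cells. The study describes its replicates as independent experiments.

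The ligands work by different routes. CD274 (PD-L1) and PDCD1LG2 (PD-L2) bind PD-1 on T cells and dampen receptor signalling, and CD274 is known to be induced by interferon-γ through IRF1. NT5E (CD73) converts extracellular AMP to adenosine, which restrains T cells and NK cells through adenosine receptors. CD47 binds SIRPα on macrophages and inhibits phagocytosis. PVR (CD155) and NECTIN2 (CD112) bind the inhibitory receptor TIGIT as well as the activating receptor CD226, while MICA and ULBP2 activate NK cells through NKG2D.

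Each library held 22264473 to 24624839 exon reads. NFKBIZ itself fell from 44.5 ± 4.12 to 13.7 ± 0.362 TPM (a length-corrected level, given as mean ± SD, n = 3), 3.43-fold, with an adjusted P of 7.20e-17 in the quasi-likelihood test of edgeR. Leukocyte RNA was nearly absent. The 9 leukocyte markers summed to 0.310 to 0.739 TPM in shCtrl and 0.388 to 0.763 TPM in shNFKBIZ, with CD3E, CD8A, MS4A1 and NKG7 at 0 reads in every library. Endothelial markers (PECAM1 and CDH5) summed to at most 0.102 TPM. The keratinocyte markers summed to 0.308 to 0.740 TPM in shCtrl and 1.42 to 1.85 TPM in shNFKBIZ, where KRT14 was higher (log2 fold change 1.37), and whether this bears on the ligand values was not tested. Of 8 melanocytic markers, MLANA, SOX10 and S100B were at 0 reads throughout and the sum did not exceed 4.23 TPM, most of it MITF, which fell from 3.21 to 2.00 TPM (-0.77, edgeR adjusted P 2.55e-05). Of 5 markers of dedifferentiated melanoma, NGFR had at most 3 reads. SOX9 was past the threshold (21.6 to 55.1 TPM, 1.27, edgeR adjusted P 7.58e-15), EGFR (0.66) and AXL (407 to 486 TPM, 0.17) were higher, and VIM was lower (-0.19). MITF and the 4 tested markers of dedifferentiated melanoma had an adjusted P of at most 0.05, as did 65.3% of all genes tested. AXL and VIM changed by less than the median size of change over all genes, 0.30. The part of these markers in the ligand values was not tested.

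The ligand genes did not all move one way in shNFKBIZ. Neither did the genes tested as a whole, of which 32.5% were higher and 32.8% lower by adjusted P alone. CD274 fell 2.36-fold and NT5E rose 2.72-fold. CD47 and PDCD1LG2 were moderately higher, PVR, MICA and CD276 were moderately lower, and NECTIN2 and ULBP2 overlapped between the groups. Of the 10 genes, 9 had enough reads to be tested, and LGALS9 did not. Past the threshold (adjusted P of at most 0.05 and at least 2-fold) were 2 of the 9, beside 8.96% of the 13843 genes tested. This comprised 1 higher gene (3.84% of all genes tested were higher) and 1 lower gene (5.12%). With counts scaled to library size alone, the same threshold gave 668 higher and 584 lower genes in place of 532 higher and 709 lower, and the median of all genes moved from 0.00 to 0.09 on the log2 scale. CD274 and NT5E were past the threshold under both scalings. Without the fold limit, 7 of the 9 passed, close to the 65.3% of all genes that did. They were 3 higher genes, beside 32.5% of all genes, and 4 lower genes, beside 32.8%. Exon counts scaled by library size and the TMM factors (CPM) did not overlap between the groups for 7 of the 9, against 68.7% of all genes. The median log2 fold change of the 9 was -0.24, with 0.00 for all genes, and the median size of change was 0.35, with 0.30 for all genes. In bulk RNA, fewer cells that express a gene and less RNA per cell cannot be told apart.

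**Figure D1:**
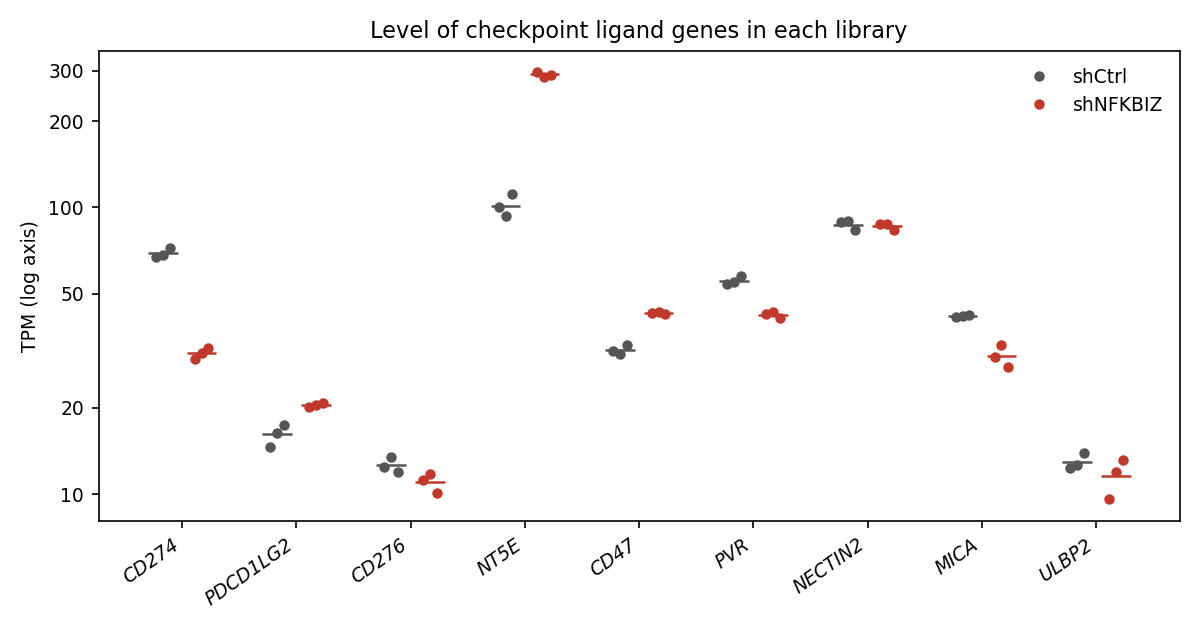
Level of each tested ligand gene in TPM (log axis) in every library, with shCtrl in grey and shNFKBIZ in red, and a line at the mean of 3 libraries. CD274 sits at 67.3 to 71.9 TPM in shCtrl and 29.6 to 32.5 TPM in shNFKBIZ, NT5E moves the opposite way, and the points of NECTIN2 and ULBP2 overlap.

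The order of the genes by TPM, which corrects for exon length, differed between the groups. In shCtrl, NT5E was the most abundant, followed by NECTIN2, CD274, PVR, MICA, CD47 and PDCD1LG2, each separated from the next in all libraries. ULBP2 and CD276 came last, and their ranges overlapped. In shNFKBIZ, NT5E stood further ahead of NECTIN2, CD47 overlapped PVR, CD274 overlapped MICA, and PDCD1LG2 followed, with ULBP2 and CD276 again last and overlapping. CD274 thus dropped from above PVR and MICA to the level of MICA. Summed over the 10 genes, shCtrl libraries held 422, 421 and 443 TPM and shNFKBIZ libraries 570.0, 569 and 562 TPM, with NT5E alone contributing a mean of 101 TPM in shCtrl and 291 TPM in shNFKBIZ.

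CD274 lies on chromosome 9 (5450503 to 5470566, plus strand, GRCh38). Its level was 67.3, 68.4 and 71.9 TPM in shCtrl and 29.6, 30.9 and 32.5 TPM in shNFKBIZ. The groups were far apart relative to the spread within each. The fall amounted to -1.24 on the log2 scale (SE 0.05, 95% interval -1.34 to -1.14) with an edgeR adjusted P of 1.61e-15. In shCtrl CD274 stood at the 83.2nd percentile of the genes tested. Reads assigned to its introns, which can come from RNA not yet spliced or, without strand, from an overlapping antisense gene, numbered 238, 264 and 270 in shCtrl and 164, 159 and 162 in shNFKBIZ. This was a fall of -0.76 (SE 0.09, edgeR adjusted P 1.76e-08), so that both read classes of CD274 were lower. The exon fall was larger than the intron fall by -0.47 (SE 0.10, edgeR adjusted P 0.000155).

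PDCD1LG2, the other PD-1 ligand, starts 39964 bases downstream of the end of CD274 on the same strand (chromosome 9, 5510531 to 5571282). It did not follow its neighbour. Levels were 14.6, 16.4 and 17.5 TPM in shCtrl and 20.1, 20.4 and 20.8 TPM in shNFKBIZ. Knockdown libraries were all above control libraries, by a log2 fold change of 0.26 (SE 0.08, 95% interval 0.09 to 0.43, edgeR adjusted P 0.00990). That call was lost with DESeq2 (adjusted P 0.0956) and without shCtrl replicate 1 (0.19, edgeR adjusted P 0.0701). Intron reads gave a similar value (0.31, SE 0.07, edgeR adjusted P 0.00100), and they made up 59.5% ± 3.51 of the reads of the gene in shCtrl, compared with 12.9% ± 0.763 for CD274. An unnamed antisense gene, ENSG00000286162, overlaps both PD-1 ligand genes, and strand was not used in counting.

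Within each library, the ratio of CD274 to PDCD1LG2 in TPM was 4.60, 4.17 and 4.12 in shCtrl and 1.48, 1.51 and 1.56 in shNFKBIZ. This ratio does not depend on how libraries are scaled. Ratios did not overlap, and the two-sided exact permutation test over the 6 libraries gave its smallest possible P of 0.10. Together the PD-1 ligands fell from 81.9, 84.7 and 89.4 TPM to 49.7, 51.4 and 53.3 TPM. Within 200 kb of CD274, 3 genes were tested, PDCD1LG2 among them. Their log2 fold changes ran from -0.33 to 0.26, and none was past the threshold.

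Because CD274 responds to interferon and STAT signalling, its promoter is shown, from 250 bases before to 50 bases after the RefSeq start (chr9:5450292-5450591, plus strand, GRCh38.p14). Capitals mark matches to the interferon element (GAAA, any 2 bases, then GAAA), read on the opposite strand at positions -208 and -202 and overlapping each other, and to the STAT consensus TTCNNNGAA at position -125.
CD274: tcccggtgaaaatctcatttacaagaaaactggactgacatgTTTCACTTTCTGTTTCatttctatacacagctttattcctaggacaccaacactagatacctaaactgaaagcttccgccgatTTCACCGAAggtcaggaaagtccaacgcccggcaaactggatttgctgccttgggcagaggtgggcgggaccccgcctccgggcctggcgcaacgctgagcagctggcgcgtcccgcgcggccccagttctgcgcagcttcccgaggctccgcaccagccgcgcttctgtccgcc

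Windows were found for 9 of the ligand genes (10 windows) and were searched on both strands. PDCD1LG2 had no window, so its promoter was not searched. The STAT consensus occurred in 1 of them, that of CD274, and in 7.66% of all 35116 windows. The interferon element occurred in 2, those of CD274 and LGALS9, and in 3.57% of all windows. The NF-κB consensus occurred in none of the 10 and in 5.91% of all windows. A match is a run of letters, not a measured binding site.

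Genes that act on CD274 transcription or on its protein were followed as a list of 15, which holds activators, the membrane partners CMTM6 and CMTM4, and the negative regulators IRF2 and SOCS1. All 15 were tested and 12 passed the adjusted P, beside 65.3% of all genes, 2 of them higher and 10 lower (32.5% and 32.8% of all genes). The median log2 fold change was -0.23, with 0.00 for all genes. Past the threshold were 2 lower genes, beside 5.12% of all genes. CMTM6, whose product protects PD-L1 protein from degradation, had 121, 114 and 135 TPM in shCtrl and 64.6, 63.5 and 67.3 TPM in shNFKBIZ (-1.001, SE 0.05, edgeR adjusted P 8.73e-13). IRF2, known as an antagonist of IRF1, had 11.1, 11.9 and 11.7 TPM in shCtrl and 5.92, 5.77 and 6.40 TPM in shNFKBIZ (-1.02, SE 0.08, edgeR adjusted P 9.86e-11). Both lie at the fold limit, and with library size alone neither reached it (-0.91 for CMTM6 and -0.93 for IRF2). Among genes picked after their values were seen, HIF1A was lower by a similar amount (-0.97), and the interferon-γ receptor subunit IFNGR2 and the factor IRF1 were higher (0.76 and 0.46).

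CD276 (B7-H3, chromosome 15, 73683966 to 73714514, plus strand) was slightly lower. Its levels were 12.4, 13.5 and 12.0 TPM in shCtrl and 11.2, 11.7 and 10.1 TPM in shNFKBIZ. The groups stood next to each other without overlap, with a log2 fold change of -0.28 (SE 0.08, 95% interval -0.44 to -0.12, edgeR adjusted P 0.00260). LGALS9, which encodes galectin-9, a TIM-3 ligand (chromosome 17, 27629798 to 27649560, plus strand), had 3, 0 and 1 reads in shCtrl and 0 in every shNFKBIZ library. With 3 reads as the limit that a count of 0 allows, its level could be up to 0.0817 to 0.0913 TPM in a library, and no difference was detectable at this depth. Such limits cover counting error only.

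NT5E showed the highest level and the largest change of the ligand genes (chromosome 6, 85449584 to 85495791, plus strand, with no overlapping gene). Its level was 100.2, 93.0 and 111 TPM in shCtrl and 297, 286 and 291 TPM in shNFKBIZ. Every knockdown library held more than every control library, by a log2 fold change of 1.44 (SE 0.05, 95% interval 1.35 to 1.54, edgeR adjusted P 3.57e-15). The introns of NT5E changed far less. Intron reads were 2390, 2467 and 2436 in shCtrl and 2879, 2985 and 2916 in shNFKBIZ, a log2 fold change of 0.18 (SE 0.05, 95% interval 0.08 to 0.28, edgeR adjusted P 0.00406). The exon change exceeded the intron change by 1.28 (SE 0.06, edgeR adjusted P 1.94e-37), and the intron share of its reads went from 46.4% ± 1.12 to 27.5% ± 0.970. With exon and intron reads summed, the log2 fold change of NT5E was 0.99, just under the fold limit.

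**Figure D2:**
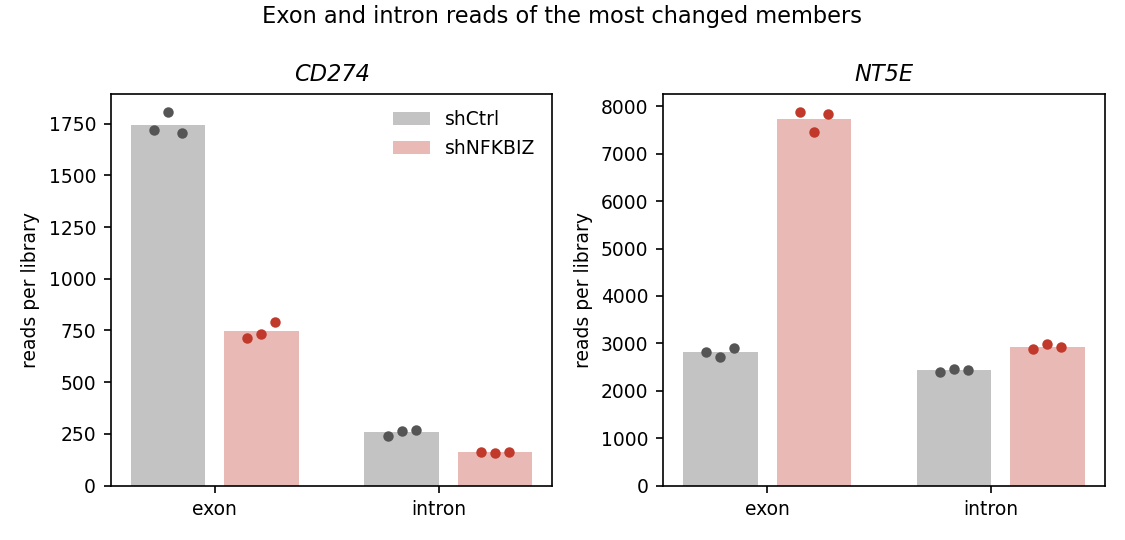
Exon and intron reads of CD274 (left) and NT5E (right) in each library, as deposited counts per library. Bars are means of 3 libraries from a zero baseline and points are libraries. Both read classes of CD274 are lower in shNFKBIZ, whereas NT5E exon reads rise from 2710 to 2906 up to 7455 to 7875 and its intron reads stay between 2390 and 2985.

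Around NT5E, 5 of 13 genes of adenosine turnover and adenosine receptors were expressed enough to be tested. All 5 passed the adjusted P, as 65.3% of all genes did. They were 2 higher and 3 lower (32.5% and 32.8% of all genes). Their median was -0.60, with 0.00 for all genes. ADORA2B, a low-affinity adenosine receptor, was past the threshold, with 2.41, 1.66 and 1.78 TPM in shCtrl and 6.57, 6.77 and 6.47 TPM in shNFKBIZ (1.67, SE 0.18, edgeR adjusted P 5.58e-08). These levels rested on 24 to 91 reads. The others, named after their values were seen, included both enzymes that remove adenosine, the deaminase ADA (-0.91) and the kinase ADK (-0.71), and ENPP1 (-0.60), while the nucleoside transporter SLC29A1 was higher (0.29). ENTPD1 (CD39), which supplies AMP to NT5E, had at most 9 reads in a library. The receptor gene ADORA2A, with at most 18 reads, had means of 0.462 TPM in shCtrl and 0.0959 TPM in shNFKBIZ and was past the threshold, as lower, under 3 settings only (no low-count filter, DESeq2, and exon plus intron reads).

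CD47 (chromosome 3, 108043091 to 108091862, minus strand) was at 31.6, 30.8 and 33.0 TPM in shCtrl and 42.8, 43.3 and 42.4 TPM in shNFKBIZ. All knockdown libraries were higher, by a log2 fold change of 0.35 (SE 0.04, 95% interval 0.26 to 0.43, edgeR adjusted P 1.06e-07), which is 1.27-fold and below the fold limit. Its intron reads gave 0.08 (SE 0.08, edgeR adjusted P 0.508), and the exon change was the larger by 0.29 (SE 0.09, edgeR adjusted P 0.0107). Of 6 partners and modifiers of CD47, 5 were tested, 4 passed the adjusted P, beside 65.3% of all genes, and none passed the threshold. Picked after their values were seen, the binding partners SIRPA (0.51) and THBS1 (0.54) were higher, and the glutaminyl cyclases QPCT (-0.53) and QPCTL (-0.72), of which QPCTL modifies CD47 for SIRPα binding, were lower.

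PVR and NECTIN2 lie 180012 bases apart on the plus strand of chromosome 19 (44643798 to 44666162 and 44846175 to 44889223). PVR had 53.9, 55.0 and 57.7 TPM in shCtrl and 42.3, 43.3 and 41.3 TPM in shNFKBIZ. All knockdown libraries were lower, by a log2 fold change of -0.48 (SE 0.04, 95% interval -0.55 to -0.40, edgeR adjusted P 1.51e-10). Its intron reads gave -0.05 (SE 0.11, edgeR adjusted P 0.765), and the exon change was lower by -0.41 (SE 0.11, edgeR adjusted P 0.00137). Genes that overlap PVR include CEACAM19 on its own strand, and 98.8% of its exon reads were unique.

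NECTIN2 exon reads, in contrast, overlapped between the groups. Levels were 88.6, 89.6 and 83.1 TPM in shCtrl and 87.7, 87.9 and 83.6 TPM in shNFKBIZ. The log2 fold change was -0.10 (SE 0.04, 95% interval -0.19 to -0.0036, edgeR adjusted P 0.0636). Its intron reads, 246, 292 and 263 in shCtrl and 207, 187 and 194 in shNFKBIZ, did not overlap and fell by 0.53 on the log2 scale (SE 0.09, edgeR adjusted P 7.64e-06). The exon change was higher than the intron change by 0.45 (SE 0.09, edgeR adjusted P 5.83e-05). An antisense gene overlaps NECTIN2, and which gene the intron reads came from cannot be told apart without strand.

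The ratio of PVR to NECTIN2 in TPM was 0.608, 0.614 and 0.694 in shCtrl and 0.483, 0.493 and 0.494 in shNFKBIZ. These values did not overlap, with an exact two-sided permutation P of 0.10, the smallest possible. BCL3, which encodes an atypical IκB protein, lies between the genes and was the only tested neighbour within 200 kb of either to pass the threshold (-2.50, SE 0.08, edgeR adjusted P 9.95e-17).

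Of the NKG2D ligands, MICA was lower and ULBP2 was not distinguishable between groups. MICA (chromosome 6, 31399784 to 31415315, plus strand) had 41.5, 41.9 and 42.2 TPM in shCtrl and 30.02, 33.2 and 27.7 TPM in shNFKBIZ. The groups did not overlap, and the log2 fold change was -0.55 (SE 0.06, 95% interval -0.67 to -0.43, edgeR adjusted P 2.04e-08). MICA is polymorphic and lies in the HLA region, and another annotated gene overlaps it on the same strand. Of its exon reads 98.7% were unique and of its intron reads none, so its intron value is uncertain. ULBP2 (chromosome 6, 149942014 to 149949235, plus strand) had 12.3, 12.6 and 13.9 TPM in shCtrl and 9.59, 12.0 and 13.1 TPM in shNFKBIZ. With 75 to 108 reads per library, of which 76.9% were unique, the log2 fold change was -0.24 (SE 0.14, 95% interval -0.53 to 0.04, edgeR adjusted P 0.128). ULBP2 belongs to a family of similar genes that can share reads.

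NKG2D ligands can be released from the cell surface by proteases. Of 5 genes known in this shedding, 4 passed the adjusted P, beside 65.3% of all genes, and none the threshold. The 4 were 1 higher and 3 lower (32.5% and 32.8% of all genes). The median of the 5 was -0.15, with 0.00 for all genes. Picked after their values were seen, MMP14 was higher (271 to 555 TPM, 0.95) and ADAM10 lower (44.7 to 24.6 TPM, -0.94). MMP14 passed the fold limit with library size alone.

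**Figure D3:**
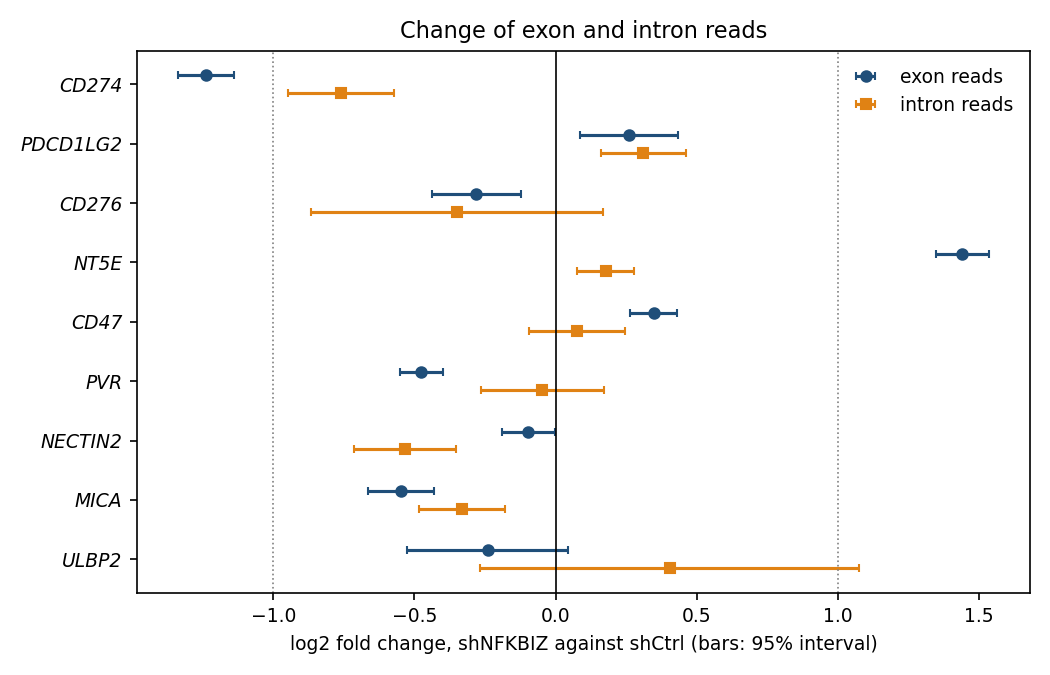
Log2 fold change in shNFKBIZ against shCtrl of exon reads (blue circles) and intron reads (orange squares) for the 9 tested ligand genes, with 95% intervals and dotted lines at 2-fold. With separate intervals, the exon change lies above the intron change for NT5E (1.44 and 0.18), NECTIN2 (-0.10 and -0.53) and CD47 (0.35 and 0.08). It lies below the intron change for CD274 (-1.24 and -0.76) and PVR (-0.48 and -0.05). The intervals overlap for PDCD1LG2 (0.26 and 0.31), CD276, MICA and ULBP2.

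Across the 9 genes, intron reads passed the adjusted P for 5 (CD274, PDCD1LG2, NT5E, NECTIN2 and MICA), beside 38.8% of the 12119 genes tested on introns. The exon and intron changes differed from each other for 5 (CD274, NT5E, CD47, PVR and NECTIN2), beside 28.9% of 11025 genes, and by at least 2-fold for 1, NT5E, beside 2.67%. The ULBP2 introns held too few reads for a narrow interval (82 in all libraries together).

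Among 27 other ligands of checkpoint or NK cell receptors, 11 were tested. By adjusted P, 7 passed, beside 65.3% of all genes, with 6 higher and 1 lower (32.5% and 32.8% of all genes). Past the threshold were 4, beside 8.96%, with 3 higher and 1 lower (3.84% and 5.12%). The median log2 fold change was 0.44, with 0.00 for all genes. A further 7 had no read in any library, among them CD80, CD86 and VSIR. CD70, the ligand of CD27, fell from 13.1, 16.5 and 16.1 TPM to 4.80, 4.43 and 4.07 TPM (-1.86, SE 0.15, edgeR adjusted P 3.48e-10). TNFRSF14 (HVEM), the ligand of BTLA, rose from 1.29, 1.53 and 1.67 TPM to 3.87, 4.93 and 4.11 TPM (1.44, SE 0.14, edgeR adjusted P 6.67e-09).

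Both remaining genes past the threshold encode NKG2D ligands and lie within 200 kb of ULBP2 on chromosome 6. RAET1E had 3.93, 3.21 and 4.42 TPM in shCtrl and 10.6, 12.5 and 11.2 TPM in shNFKBIZ (1.49, SE 0.09, edgeR adjusted P 5.68e-12). Only 59.1% of its reads were unique and antisense genes overlap it, so its value is uncertain. ULBP3 had 2.22, 1.80 and 2.40 TPM in shCtrl and 4.39, 4.75 and 5.73 TPM in shNFKBIZ (1.13, SE 0.17, edgeR adjusted P 5.84e-06), with 93.6% unique reads. NKG2D ligand genes thus differed in direction, with MICA lower and RAET1E and ULBP3 higher, whereas MICB gave -0.03 (edgeR adjusted P 0.637), a value that turned to 0.06 with library size alone.

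**Figure D4:**
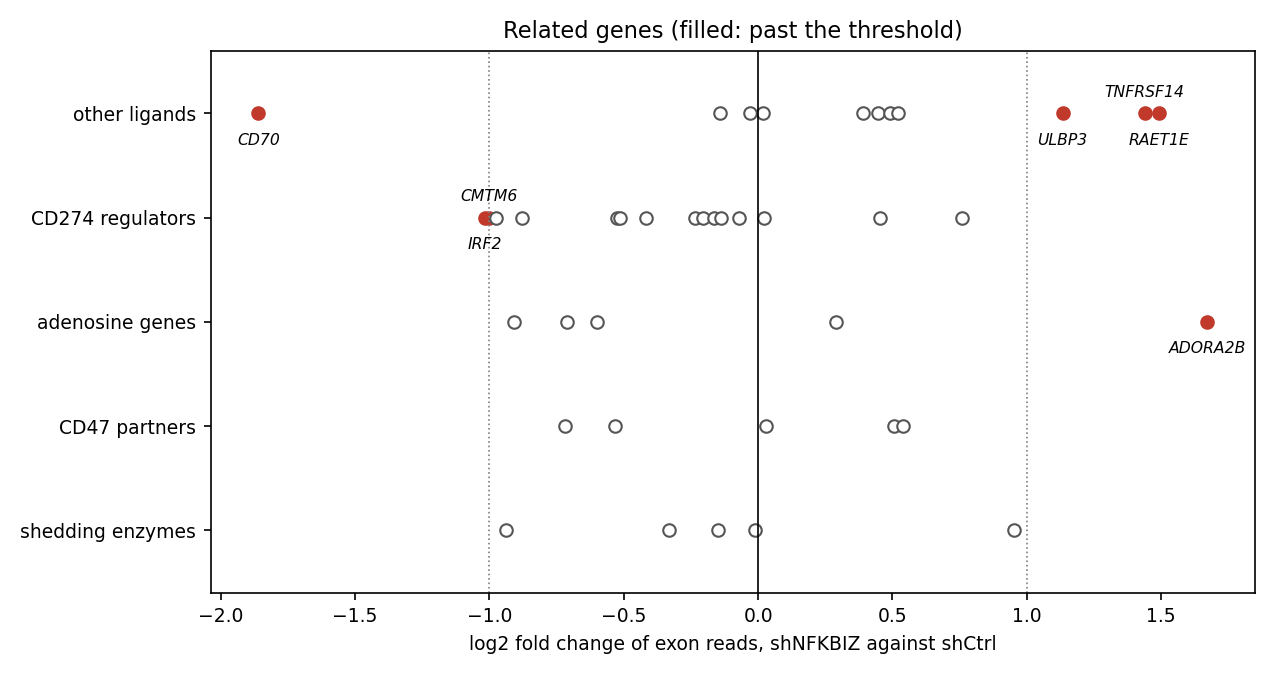
Log2 fold change of exon reads in shNFKBIZ against shCtrl for the tested genes of 5 related lists, 1 point per gene, filled where past the threshold, with dotted lines at 2-fold. CD70, CMTM6 and IRF2 are filled on the lower side, and TNFRSF14, RAET1E, ULBP3 and ADORA2B on the higher side.

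Most receptors for the ligands had few or no reads in these cells. Of 10 receptor genes, 8 had at most 5 reads in any library, among them PDCD1, TIGIT and KLRK1. The 2 that were tested, named here after their values were seen, were higher in shNFKBIZ without reaching the fold limit in the main comparison. SIRPA, the receptor of CD47, had means of 15.8 TPM in shCtrl and 23.7 TPM in shNFKBIZ, near the level of PDCD1LG2. CD226 had means of 0.612 TPM and 1.27 TPM (log2 fold change 0.98). It was past the threshold under 3 of 15 alternatives (library size alone, without shCtrl replicate 3, and without shNFKBIZ replicate 1).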

How the data were processed

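RNA-seq reads of 6 LOX-IMVI libraries were mapped by the authors to GRCh38 (CLC Genomics Workbench at its defaults, Ensembl gene models), and the deposited files hold whole-number counts of exon and intron reads per gene for each library, without use of strand. Groups and replicate numbers were taken from sample titles. TPM values, which the authors wrote with a decimal comma, were computed again here as exon reads per length of exon and matched theirs within rounding. The 10 ligand genes, the related gene lists and the tests were chosen with earlier results of these data known. Named from the lists were genes past the threshold and the cell type markers. Any other list gene was named after its values were seen. A gene of the lists is not reported by name here.

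Total exon reads were filtered with filterByExpr, scaled by TMM and compared by the quasi-likelihood test of edgeR 4.0.16 in R 4.3.3 (two-sided, Benjamini-Hochberg adjustment over all genes tested). Intron reads were fitted likewise, and exon against intron change as an interaction in 1 edgeR model with a library block. The fits were tried on simulated counts with the same dispersion for every gene. That trial asked whether planted changes were recovered and does not check the P values of these data. Promoter windows came from RefSeq (GRCh38.p14). Alternatives were other scaling, filters, read classes, DESeq2 1.42.0, a replicate block and leaving out each library. Same-numbered libraries were not paired by the labels, and the correlations of their deviations were 0.02 to 0.06.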

Additional observations from a re-analysis of the deposited data

How the results depend on the processing

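CD274 and NT5E were past the threshold under every alternative run, except that NT5E was at 0.99 with exon and intron reads summed, which left 1 ligand gene of 9 past it. Without a fold limit 7 ligand genes and 9039 genes passed, and at 1.5-fold 3098 genes in place of 1241. Unfiltered counts gave 1740 genes, a minimum of 10 reads in every library 891, and leaving out 1 library 1315 to 1361, with 2 ligand genes each time. The replicate block gave 1244 genes and 2 ligand genes, with log2 fold changes of -1.24 for CD274 and 1.44 for NT5E. The labels do not say whether same-numbered libraries came from the same experiment. NECTIN2 passed the adjusted P with the block (-0.10, edgeR adjusted P 0.0280), without a filter, with unique reads, with exon and intron reads summed and without shCtrl replicate 3 (-0.14, edgeR adjusted P 0.00749), and ranged from -0.15 to -0.01. With unique reads the ratio of PVR to NECTIN2 in shNFKBIZ was 0.483 in place of 0.490. No direction of a ligand gene turned under any alternative. CMTM6 ranged from -1.05 to -0.91 and IRF2 from -1.07 to -0.86 and each missed the fold limit under 4 alternatives, 2 of which were library size alone and leaving out shNFKBIZ replicate 2. CMTM6 also missed it with the minimum of 10 reads and without shCtrl replicate 3, and IRF2 with exon and intron reads summed and without shCtrl replicate 2. Low-count genes (LGALS9, ULBP2 and most receptors) are limited by depth. The causes of these shifts were not tested.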
